A study of Mus musculus with 22 samples.

Results

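Liver sinusoidal endothelial cells were found in 11 pooled mouse tissue libraries as 1190 barcodes of 93055 that passed the cell filter (1.28%), out of 176676 barcodes deposited for these libraries. They were chosen by their own UMIs (unique molecular identifiers, 1 per captured RNA molecule). A barcode with at least 200 detected genes and at most 25% mitochondrial UMIs was a member when it held at least 1 UMI in at least 2 of 6 genes (Stab2, Clec4g, Oit3, Fcna, Dnase1l3 and Kdr), with Stab2, Clec4g or Oit3 among them. It also had to hold 0 UMI of Ptprc, Epcam, Mmrn1 and Car4, which mark leukocytes, epithelium, lymphatic endothelium and part of the lung and kidney endothelium. The members held 2460182 UMIs in all, with a median of 1611 UMIs (quartiles 1161.2 to 2421.8), a median of 955.5 genes and a median mitochondrial share of 14.5%.

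Sinusoidal endothelial cells line the capillaries of the liver lobule. Their wall is perforated by open fenestrae and rests on little basement membrane, so plasma reaches the hepatocytes directly, and the cells clear waste proteins, immune complexes and matrix fragments from blood through scavenger receptors that deliver their cargo to lysosomes. They also send signals such as BMP2, WNT2, RSPO3 and HGF to hepatocytes, and their expression changes along the lobule from the portal tract, where blood enters, to the central vein, where it leaves.

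Each tissue library pooled cells of kidney, liver, lung and stomach with epididymis in males or uterus in females. The organs were dissociated separately, tagged with hashtag antibodies and combined before capture. Barcodes below carry no organ of origin, because the tag counts stayed out of the analysis. All mice carried Prom1-CreERT2, a tamoxifen-inducible Cre under the promoter of Prom1, and the Rosa26ZSG green fluorescent reporter. The wt controls carried both as well, and the Cre acts only in cells where Prom1 is or was active. The wt group (Prom1-CreERT2;Rosa26ZSG) had 5 libraries, replicates 1 and 2 from males aged 571 days, replicate 3 from a male aged 608 days, and replicates 4 and 5 from females aged 611 and 654 days. The het group (Prom1-CreERT2;Rosa26ZSG;Nalcn-het) had 2 libraries, both from males aged 551 days. The null group (Prom1-CreERT2;Rosa26ZSG;Nalcn-null) had 2 libraries, replicate 2 from a male aged 552 days and replicate 3 labelled female, aged 611 days. The genotype of null replicate 3, which held 271 of the members, comes from its strain label alone, since its title gives none. For 2 further libraries the title and the strain label disagreed on genotype, a male aged 610 days and a female aged 647 days, and they entered no genotype comparison. Whether libraries of 1 group came from separate mice was not stated for every pair, so p-values measure only the spread between these libraries.

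The tissue libraries differed widely in depth, with 8571019 to 139793927 UMIs and 287 to 18242 barcodes passing the filter in each. No member barcode sequence occurred in more than 1 library. In blood, 10 libraries held sorted ZSG+ cells of wt, het and null mice aged 551 to 649 days, and 1 held mononuclear cells of a wt male aged 120 days. None of 2109 passing barcodes of the sorted cells was a member, which allows a share of up to 0.142%, and none of 679 mononuclear cell barcodes, which allows up to 0.442%.

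A pair of libraries stood apart or went against their labels and bear on several values below. In wt replicate 2, 21 of the 26 members held only 2 of the 6 rule genes. Sinusoidal genes that the rule did not use summed to 1660 CPM (UMIs of a gene per 1000000 UMIs of the set) there and to 7900 to 13900 CPM in the other 9 libraries with at least 20 members. A doublet caller marked 26.9% of its members and 21.0% of all its passing barcodes. The second share was set in advance from the number of deposited barcodes. In wt replicate 4 the shares were 19.2% and 22.3%. The library labelled null replicate 3 (female, with uterus) held both sexes' transcripts. Its passing barcodes had 1320 CPM of Xist, as female libraries do, but also 1040 UMIs of Y-linked genes (43.0 CPM, against 184 to 222 CPM in the male libraries and at most 0.0728 CPM in the other female libraries), and its barcodes outside the members held epididymal transcripts such as Gpx5 (7930 CPM) and Defb20 (6580 CPM). Its members held 663 UMIs of Xist and 3 of Y-linked genes.

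Members were present in all 11 libraries, but their share varied widely between libraries of the same genotype. In the wt group the share of passing barcodes was 1.26% in replicate 1 (75 members, 95% Clopper-Pearson interval 0.994% to 1.58%), 0.143% in replicate 2 (26, 0.0931% to 0.209%), 2.59% in replicate 3 (145, 2.19% to 3.04%), 0.398% in replicate 4 (52, 0.297% to 0.522%) and 0.697% in replicate 5 (2, 0.0845% to 2.49%). It was 1.51% (113, 1.24% to 1.81%) and 5.95% (241, 5.24% to 6.73%) in the het libraries, and 0.344% (30, 0.233% to 0.491%) and 2.89% (271, 2.56% to 3.25%) in the null libraries. The male and the female library without a group held 3.56% (154 members) and 0.507% (81 members). The wt values overlapped those of both other groups. Intervals cover counting error only. Fewer of these cells in the liver and fewer liver cells in the pool cannot be told apart.

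**Figure D1:**
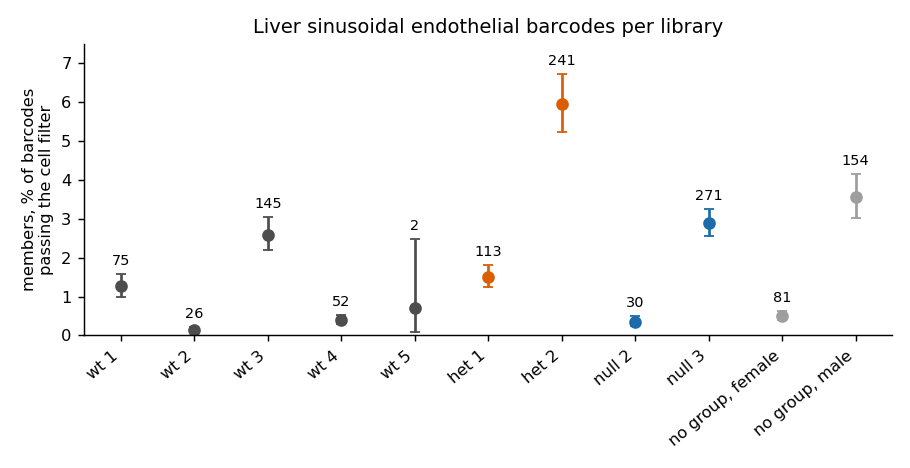
Share of passing barcodes that are sinusoidal endothelial members (percent, y axis) in each of the 11 tissue libraries, grouped by labelled genotype; points are libraries, with their 95% Clopper-Pearson intervals. The wt libraries run from 0.143% to 2.59% and the highest share is het replicate 2, at 5.95%.

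To give the sequence context of genes that define these cells, the promoter windows of Stab2, Clec4g, Fcgr2b, Mrc1 and Clec1b are printed. Stab2 and Clec4g are rule genes. Fcgr2b, Mrc1 and Clec1b have the largest differences of the cell surface receptor genes among the 12 highest named below. The windows come from RefSeq (build GRCm38.p6), from 250 bases before to 50 after the start, 5′ to 3′ on the gene's strand. They lie at chr10:87007893-87008192 (minus strand, Stab2), chr8:3720602-3720901 (minus, Clec4g), chr1:170976022-170976321 (minus, Fcgr2b), chr2:14229164-14229463 (plus, Mrc1) and chr6:129397047-129397346 (plus, Clec1b). Capitals mark matches on either strand to AGATAA or TGATAA, letters that GATA factors bind, or to AGGAAG, letters that ETS factors bind.
Stab2: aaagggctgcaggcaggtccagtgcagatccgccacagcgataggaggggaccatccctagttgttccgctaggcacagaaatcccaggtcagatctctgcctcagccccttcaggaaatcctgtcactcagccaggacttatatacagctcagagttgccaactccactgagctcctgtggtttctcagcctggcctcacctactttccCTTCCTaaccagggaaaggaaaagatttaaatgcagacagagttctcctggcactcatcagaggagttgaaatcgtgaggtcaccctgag
Clec4g: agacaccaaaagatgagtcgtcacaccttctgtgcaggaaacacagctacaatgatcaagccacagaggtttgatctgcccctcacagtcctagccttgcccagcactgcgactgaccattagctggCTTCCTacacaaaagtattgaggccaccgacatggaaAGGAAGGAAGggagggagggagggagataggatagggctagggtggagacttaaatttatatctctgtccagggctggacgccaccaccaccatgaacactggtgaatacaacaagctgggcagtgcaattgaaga
Fcgr2b: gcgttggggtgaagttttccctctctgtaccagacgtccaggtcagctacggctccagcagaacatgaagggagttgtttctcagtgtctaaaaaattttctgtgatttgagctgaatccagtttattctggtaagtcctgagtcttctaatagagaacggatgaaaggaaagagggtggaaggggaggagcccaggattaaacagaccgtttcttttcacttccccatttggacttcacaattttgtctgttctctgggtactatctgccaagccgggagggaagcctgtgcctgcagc
Mrc1: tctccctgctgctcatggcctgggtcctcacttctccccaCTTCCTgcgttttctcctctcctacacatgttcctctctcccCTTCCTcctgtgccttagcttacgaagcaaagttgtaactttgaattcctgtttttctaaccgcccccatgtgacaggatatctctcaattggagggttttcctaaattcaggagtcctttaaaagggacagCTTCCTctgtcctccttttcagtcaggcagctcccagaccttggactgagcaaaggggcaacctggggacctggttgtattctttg
Clec1b: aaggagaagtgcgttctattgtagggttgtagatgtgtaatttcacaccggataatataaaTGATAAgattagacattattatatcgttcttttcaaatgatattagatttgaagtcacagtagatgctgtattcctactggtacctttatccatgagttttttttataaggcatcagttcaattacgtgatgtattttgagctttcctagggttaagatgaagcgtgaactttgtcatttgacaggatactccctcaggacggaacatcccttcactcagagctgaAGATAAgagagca
The Clec1b window held 2 GATA matches and no ETS match, Clec4g and Mrc1 held 3 ETS matches each with overlapping ones counted apart, Stab2 held 1, and Fcgr2b held none. Among 32851 mouse promoter windows of the same length, 18.6% held a GATA match and 35.4% an ETS match. Of the 12 genes named below as highest in the members, 6 had a window, of which 1 held a GATA match and 3 an ETS match. The letters TGCTGA, part of the site of MAF factors, occurred in 1 of these 6 and in 19.5% of all windows. These matches are a description of the letters only.

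The rule genes themselves gave the following profile. Kdr, the main VEGF receptor, had a UMI in 91.8% of members, the C-type lectin Clec4g in 87.2%, the secreted nuclease Dnase1l3 in 84.4%, the hyaluronan receptor Stab2 in 59.1%, Oit3 in 56.6% and the ficolin Fcna in 1.93%. Exactly 2 rule genes were detected in 185 members, 3 in 252, 4 in 364, 5 in 382 and all 6 in 7. The commonest combination, every rule gene but Fcna, was found in 375 members (31.5%). A further 254 barcodes met the other conditions with only 1 rule gene and fell just outside, and 539 were refused for a UMI of an excluded gene, most often Ptprc (414) or Car4 (137). The 13 sinusoidal genes outside the rule summed to a median over libraries of 1890 CPM just outside the rule (1150 to 3370 CPM), 3460 CPM (1450 to 5170 CPM) in members with exactly 2 rule genes and 12400 CPM (8450 to 14600 CPM) in members with at least 3. Members with 2 rule genes thus lay nearer to the barcodes just outside than to the other members, and results that rest on all members hold this range of cells.

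The members were next set beside 11003 other endothelial barcodes of the same 10 libraries (wt replicate 5, with 2 members, could not be fitted). These held at least 2 of Pecam1, Cdh5, Egfl7, Ramp2 and Tie1, pan-endothelial genes, and 0 UMI of Stab2, Clec4g, Oit3 and the 4 excluded genes. Of the members, 973 (81.8%) also met the pan-endothelial condition. Over all 11 libraries members made up 9.75% of members and such other barcodes together. This total leaves out endothelial barcodes with a UMI of an excluded gene, such as Car4 or Mmrn1. Because the members were selected on UMIs of these same barcodes, genes that go with the rule genes were bound to differ, and the contrast is given as a description with nothing read from its size. Of 7380 genes outside the 15 that chose the sets, 1095 were higher in members (14.8%) and 1195 lower (16.2%) at an adjusted p of 0.05 in edgeR's quasi-likelihood test with the library as block, and the median log2 difference was −0.01. Without wt replicate 2, 1223 were higher and 1341 lower of 7400.

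Sinusoidal markers that the rule did not use were high in the members of 9 libraries and low in those of wt replicate 2. Of the 13, 11 had enough counts for the fit, 10 were higher and none lower, with a median log2 difference of 3.45. Without wt replicate 2 all 13 could be fitted and 13 were higher (median 3.64). Fcgr2b, the Fc receptor that takes up immune complexes, ran from 116.9 to 1823 CPM over the 10 libraries (median 1394) in members and from 4.883 to 18.41 CPM (median 10.71) in other endothelium, a log2 difference of 6.58 ± 0.36 (SE). The lowest member value was wt replicate 2, and the next lowest was 883 CPM. Bmp2, the ligand that drives hepcidin in hepatocytes, ran from 35.98 to 1774 CPM (median 1329) against 9.766 to 34.55 CPM (median 16.0), a log2 difference of 5.99 ± 0.36. Maf, a transcription factor gene, ran from 296.8 to 3036 CPM (median 2378) against 61.6 to 193.4 CPM (median 107.4), a difference of 4.25 ± 0.27. For these 3 genes the groups of libraries did not overlap. The mannose receptor Mrc1 (5.66 ± 0.36), the lectin Clec1b (5.25 ± 0.27), the atypical chemokine receptor Gpr182 (3.45 ± 0.23), Flt4 (2.64 ± 0.22), coagulation factor F8 (2.54 ± 0.26), Stab1 (2.51 ± 0.21) and the protease Ctsl (1.74 ± 0.16) followed. Lyve1, a hyaluronan receptor shared with lymphatic vessels, was the one that did not pass (0.98 ± 0.38), with members above other endothelium in 5 of 10 libraries.

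**Figure D2:**
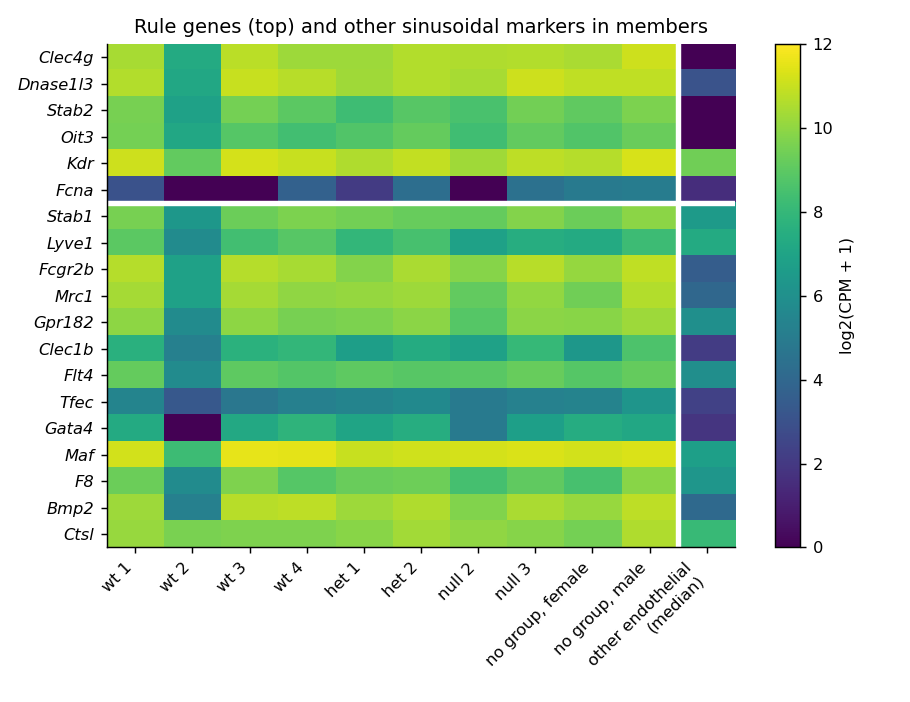
Heat map of log2(CPM + 1) for the rule genes (above the white line) and the sinusoidal markers outside the rule (below it) in the members of 10 libraries (columns), with the median over libraries of other endothelial barcodes in the last column. Members of wt replicate 2 stand apart, with Fcgr2b at 116.9 CPM against at least 883 CPM in the members of the other 9 libraries.

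Detection per cell was compared after each barcode was thinned to 1000 UMIs. This kept 997 members, 8407 other endothelial barcodes and 5685 B cells, taken as passing barcodes with a UMI of both Cd79a and Ms4a1. Other cell types and doublets were not removed from the B cells. Own expression, doublets and free RNA in their shares were therefore not told apart. The share with a UMI of Maf was 84.1% in members, 9.49% in other endothelium and 9.23% in B cells. Fcgr2b, which B cells also express, was at 69.4%, 1.07% and 6.0%. Bmp2 was found in 65.8%, 0.952% and 0.686%, Mrc1 in 64.3%, 1.56% and 3.57%, and Gpr182 in 58.7%, 6.29% and 0.633%. Gata4, the transcription factor that sets sinusoidal against continuous endothelial identity, was detected in 13.5% of members, 0.25% of other endothelium and 0.123% of B cells, and Clec1b in 18.1%, 0.416% and 0.422%. These shares rest on barcodes with enough UMIs, and the median depth before thinning was 983 to 3725 UMIs per library in members and 1012 to 4889 UMIs in other endothelium.

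Markers of other cells were present in the members, at levels that varied between libraries. The 8 hepatocyte genes, all with a UMI, summed to 54 to 1020 CPM in members and 86 to 659 CPM in other endothelium. Of the 5 with enough counts 3 were higher in members, among them Alb (log2 difference 0.76 ± 0.17), and after thinning Alb was found in 23.9% of members, 10.7% of other endothelium and 7.05% of B cells. The 9 macrophage and Kupffer cell genes summed to 203 to 1800 CPM in members against 59.3 to 1170 CPM. The complement genes C1qa (1.44 ± 0.34), C1qb (1.38) and C1qc (1.25) were higher, and Clec4f, which defines Kupffer cells, was found in 1.20% of thinned members against 0.131% and 0.158%. Haemoglobin and platelet genes summed to 367 to 18100 CPM in members and 2730 to 34000 CPM in other endothelium. In the members of both libraries without a group (14600 CPM in the male, 18100 CPM in the female) they exceeded the sum of the sinusoidal markers outside the rule (13900 and 8810 CPM). They also did so in wt replicate 2 (5870 against 1660 CPM). Stellate and fibroblast genes (21.1 to 514 CPM against 222 to 698) and large-vessel genes (0 to 422 CPM against 394 to 699) were lower in members, with 3 of 4 tested below other endothelium in each list. The part of such RNA in the values below was not tested.

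Uptake and degradation genes were largely higher in the members. Of 14 receptors for scavenging and uptake, 9 were higher and 2 lower, with a median log2 difference of 1.65 against −0.01 over all genes. Stab1, Mrc1, Fcgr2b, Lyve1 and Clec1b of this list, and Ctsl of the lysosomal list, were already counted among the sinusoidal markers. The scavenger receptor Msr1 was at 26.98 to 284.9 CPM (median 150.4) in members and 2.185 to 11.06 CPM (median 3.308) in other endothelium, a difference of 4.91 ± 0.30. The neonatal Fc receptor Fcgrt (2.62 ± 0.17) and the endocytic adaptor Dab2 (2.09 ± 0.16) were also higher in 10 of 10 libraries. The lower ones were the lipid receptors Scarb1 (−0.47 ± 0.14) and Cd36 (−0.65 ± 0.21). Without wt replicate 2, 11 were higher and 3 lower, with Lrp1 (−0.74 ± 0.25) added to the lower ones. Of 17 lysosomal genes 13 were higher and 0 lower (median 0.84; without wt replicate 2, 13 higher and 1 lower, Cd63 at −0.59 ± 0.14), led by the proteases Lgmn (2.52 ± 0.21), Ctsl and Ctsb (1.73 ± 0.12) and the membrane protein Lamp2 (1.44 ± 0.13). Summed lysosomal RNA was 13900 CPM in members of wt replicate 2 and 7160 CPM in its other endothelium, the highest of both sets. Among 7 iron genes 3 were higher, including the iron exporter Slc40a1 (26.98 to 269.3 CPM, median 197.8, against 3.381 to 14.64 CPM, median 6.988; 4.60 ± 0.23) and haem oxygenase Hmox1 (1.32 ± 0.24). Ferritin heavy chain Fth1 was lower (−0.56 ± 0.16).

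Secreted signals split by gene. Of 13 angiocrine factors 5 were higher and 5 lower (median −0.50). Beside Bmp2, the members were higher in the hepatocyte mitogens Wnt2 (0 to 280.8 CPM, median 166.9, against 5.213 to 20.27 CPM, median 8.928; 4.02 ± 0.23) and Hgf (2.67 ± 0.32) and in the WNT enhancer Rspo3 (2.56 ± 0.47). Among these 10 libraries, Wnt2 and Hgf were at 0 in the members of wt replicate 2 alone. The chemokine Cxcl12 (−2.78 ± 0.29), the pericyte ligand Pdgfb (−2.13 ± 0.18), the constrictor Edn1 (−2.06 ± 0.19) and stem cell factor Kitl (−1.24 ± 0.11) were lower in 10 of 10 libraries. Among 12 chemokines and cytokine receptors 4 were higher and 4 lower. The T cell attractant Cxcl9 (3.6 ± 0.40), the membrane-bound Cxcl16 (2.43 ± 0.18) and the interleukin-6 signal transducer Il6st (1.90 ± 0.19) were higher, and Ackr3 (−2.55 ± 0.33) and Cx3cl1 (−2.52 ± 0.34) were lower.

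Receptors and their targets also differed. Of 7 VEGF and TIE family receptors and partners, 5 were higher and 2 lower (1 without wt replicate 2; median 1.04). Flt4, Nrp2 (1.66 ± 0.15), Robo4 (1.11 ± 0.15) and Plxnd1 (1.04 ± 0.16) were higher, and the decoy receptor Flt1 was lower (−0.89 ± 0.10). In the BMP and TGF-β list 4 of 12 were higher and 4 lower, with the co-receptor Tgfbr3 (0.89 ± 0.14) and Id2 (0.70 ± 0.12) above other endothelium and the BMP9 receptor Acvrl1 (−2.10 ± 0.18), its target Tmem100 (−3.26 ± 0.40) and Id1 (−1.11 ± 0.17) below. Of 6 Notch genes 1 was higher (Nrarp, 0.50 ± 0.16) and 2 lower, the arterial target Hey1 (−1.73 ± 0.42) and the receptor Notch4 (−1.02 ± 0.19). Of 19 transcription factor genes 5 were higher, with Maf, Nr2f2 (2.21 ± 0.18) and Nr2f1 (2.14 ± 0.20) the largest, and 8 lower, with Foxf1 (−2.91 ± 0.33), Klf4 (−1.41 ± 0.19), Sox17 (−1.39 ± 0.16) and Gata2 (−1.27 ± 0.18) the largest. Without wt replicate 2, 21 could be fitted, of which 7 were higher, Gata4 and Tfec among them, and 8 lower. NR2F2 marks venous and lymphatic endothelium, SOX17 arterial endothelium and FOXF1 lung endothelium.

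Of 11 genes of caveolae and fenestrae 2 were higher and 8 lower (median −1.17). Caveolin Cav1 was at 0 to 134.6 CPM (median 89.09) in members against 192.5 to 832.3 CPM (median 553.1; −2.50 ± 0.20), with no overlap. Cavin3 (−2.92 ± 0.28) and Plvap, whose protein forms the diaphragms that sinusoidal fenestrae lack (−2.03 ± 0.19), were lower as well. Of the membrane-shaping EHD proteins, Ehd3 was higher (3.41 ± 0.29; median 1990 CPM against 146.4 CPM) while Ehd2 (−2.32) and Ehd4 (−2.32) were lower. The water channel Aqp1 was higher (0.94 ± 0.23). Of 15 matrix genes 5 were higher and 6 lower, with Col13a1 (2.38 ± 0.21) above and Sparcl1 (−3.11 ± 0.23), Mgp (−2.74 ± 0.25) and Fn1 (−2.21 ± 0.28) below. Of 12 adhesion genes 3 were higher (5 without wt replicate 2) and 4 lower. The capillary sialomucin Cd34 (−2.22 ± 0.21) was lower and the junction protein Jam2 (1.10 ± 0.16) higher. Of the 7 general endothelial genes not used to choose the comparator, Emcn was lower (−1.45 ± 0.17) with 1 other, Tek (−0.32), and none higher. Without wt replicate 2 Tek did not pass, and Eng (0.32 ± 0.09) and Esam (0.27 ± 0.10) were higher.

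Genes that act on blood complement and coagulation went both ways. Of 12 regulators 5 were higher and 6 lower (median −0.68). The complement shields Cd55 (35.98 to 664.9 CPM, median 510.2, against 5.463 to 24.42 CPM, median 16.24; 4.82 ± 0.29) and Cd59a (2.57 ± 0.19), factor VIII (F8) and the tissue factor inhibitor Tfpi (2.50 ± 0.16) were higher. The plasminogen activator Plat (−3.18 ± 0.26), the protein C receptor Procr (−1.93 ± 0.31), the thrombin receptor Thbd (−1.87 ± 0.15) and von Willebrand factor, Vwf (−1.52 ± 0.24), were lower. Of 9 vasoactive genes 5 were lower, including Ace (−2.82 ± 0.32) and Ramp3 (−2.45 ± 0.25), and 1, Ptgs1, higher (1.01 ± 0.16).

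Most antigen presentation, interferon-stimulated and immediate early genes were lower. Of 14 antigen presentation genes 0 were higher and 10 lower (median −0.68), with Cd274 (−1.23 ± 0.27), Cd74 (−1.07 ± 0.17), H2-Ab1 (−1.04 ± 0.16) and Tap1 (−1.02 ± 0.19) the most. Of 15 interferon-stimulated genes 2 were higher and 8 lower (median −0.56), with Rsad2 at −1.90 ± 0.25 and Ifit1 at −1.58 ± 0.31, against Ifit2 at 0.86 ± 0.22. Of 12 immediate early and heat shock genes 0 were higher and 10 lower (median −1.45), among them Fosb (−2.11 ± 0.31), Atf3 (−2.02 ± 0.32) and Egr1 (−1.91 ± 0.29). The paper dissociated liver with a different enzyme mix from lung, stomach and kidney. The part of dissociation in these values was not tested. Of 6 senescence and p53 genes 1 was higher and 2 lower (median −0.35). Among them the cell cycle inhibitor Cdkn1a was lower (−2.10 ± 0.39) with a median of 173.2 CPM in members against 941.7 CPM. Of 5 lung capillary genes 4 were lower and the lipase anchor Gpihbp1 was higher (1.16 ± 0.19).

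**Figure D3:**
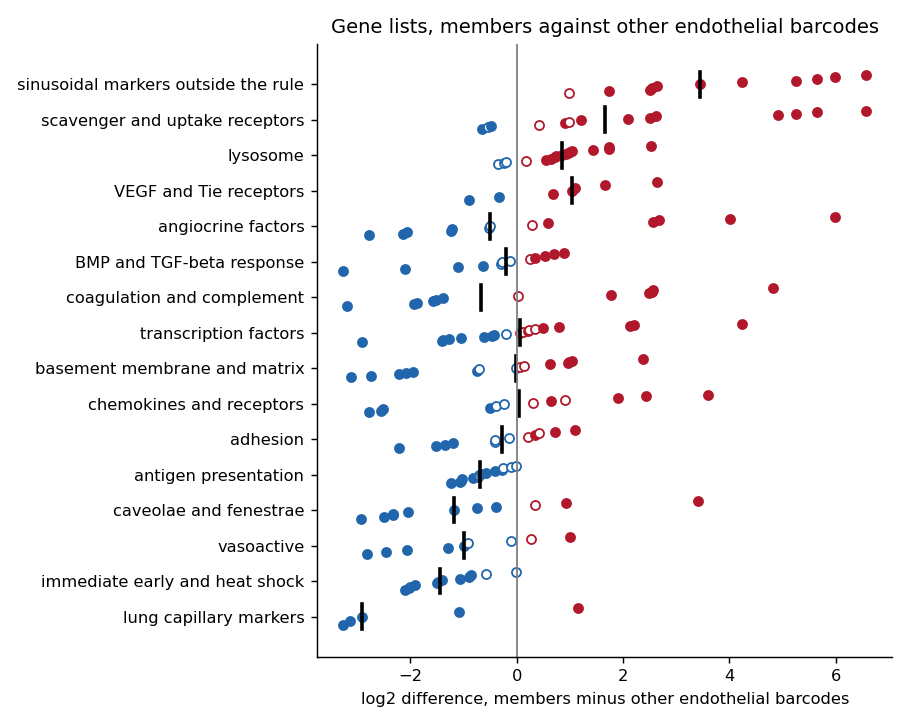
Log2 difference between members and other endothelial barcodes (x axis, edgeR estimate over 10 libraries) for each gene of the gene lists (y axis); filled points passed an adjusted p of 0.05, open points did not, and black bars are list medians. The sinusoidal markers outside the rule have a median of 3.45, lysosomal genes 0.84, and immediate early and heat shock genes −1.45.

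The 12 genes highest in members by the naming rule (at least 20 CPM in the higher set, same direction in every library) were Fcgr2b, Bmp2, Mrc1, Gm10600 (5.26 ± 0.29), Clec1b, the antisense RNA Plet1os (5.13 ± 0.32), Msr1, Cd55, the long noncoding Gm15675 (4.75 ± 0.29), Slc40a1, the semaphorin receptor Plxnc1 (4.51 ± 0.29) and Maf. Gm15675 lies next to Cd55. The 12 lowest were Ccdc85a (−3.87 ± 0.31), the IGF-binding protein Igfbp3 (−3.81 ± 0.36), Stard13, Runx1t1, the methyltransferase Inmt (−3.56 ± 0.22), Kank4, Tmem252, the natriuretic peptide clearance receptor Npr3 (−3.49 ± 0.19), 3110099E03Rik, Rasgef1a, Rapgef4 and Tmem100. Npr3 was at 10.66 to 70.38 CPM in members against 195.8 to 529.8 CPM in other endothelium, with no overlap.

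The members varied among themselves along the lobule. A list of 6 genes of the central vein side (Wnt2, Wnt9b, Rspo3, Kit, Cdh13 and Thbd) and a list of 6 of the portal side (Efnb2, Dll4, Ltbp4, Ntn4, Adgrg6 and Msr1) were counted in each member. Only central genes were found in 188 members (15.8%), only portal genes in 389 (32.7%), both in 483 (40.6%) and neither in 130 (10.9%). Members with neither had a median of 1143.5 UMIs and those with both a median of 1928 UMIs, and the part of depth in these classes was not tested. The classes are ranges of UMIs, not cell types. The central-only and portal-only members had like depth (1518 and 1490 UMIs) and mitochondrial share (15.0% and 15.3%).

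Central-only members were compared with portal-only members within the 6 libraries that held at least 10 of each (165 against 328 members). The 12 list genes made the split and are not read. As the split used UMIs of the same barcodes, genes that vary with these 12 were bound to differ and the counts are a description. Of 1107 other genes 14 were higher on the central side (1.26%) and 14 on the portal side (1.26%) at an adjusted p of 0.05 in edgeR's quasi-likelihood test. These calls depend on the fit. With DESeq2, 5 of the 22 genes named here kept their call (Fabp4, Cd9, Adam23, Apoe and Calm2), and after thinning to 1000 UMIs 3 of the 12 that could be fitted did (Fabp4, Dhrs3 and Apoe). Fabp4, a fatty acid carrier, was at 2203 ± 930.3 CPM (SD, n = 6 libraries) on the central side and 835.8 ± 349.9 CPM on the portal side, a log2 difference of 1.37 ± 0.20. The tetraspanin Cd9 was at 354.2 ± 110.5 against 139.6 ± 25.74 CPM (1.20 ± 0.23), and the prostaglandin transporter Slco2a1 at 441.4 ± 145.6 against 200.9 ± 30.72 CPM (0.99 ± 0.21). For Cd9 and Slco2a1 the library values of the sides did not overlap. The aryl hydrocarbon receptor Ahr (1.00 ± 0.27), the hyaluronidase Hyal2 (0.99 ± 0.26), the retinal reductase Dhrs3 (0.90 ± 0.19), Ralgapa2 (0.88 ± 0.22), the TAM receptor ligand Gas6 (0.83 ± 0.20), Plpp1 (0.82 ± 0.16) and App (0.52 ± 0.13) were also higher on the central side in every library.

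The portal side was higher in 12 genes in every library. Gpr182 was at 1194 ± 133.1 CPM there and 795.1 ± 113.9 CPM on the central side (−0.58 ± 0.13), without overlap. The ephrin Efnb1 (−1.35 ± 0.30), the Notch target Hes1 (−0.94 ± 0.27), the integrin Itga9 (−0.96 ± 0.25), Adam23 (−0.98 ± 0.20), the surface antigen Ly6a (−0.95 ± 0.21), Tm4sf1 (−0.76 ± 0.18), the amino acid transporter Slc43a2 (−0.99 ± 0.21), Agpat5 (−0.99 ± 0.26) and Calm2 (−0.66 ± 0.14) were of this kind. So were 2 genes that hepatocytes express strongly, Alb (486.3 ± 213.2 against 221.1 ± 70.62 CPM, −1.01 ± 0.21) and Apoe (4595 ± 1425 against 2654 ± 309 CPM, −0.76 ± 0.14). Lyve1 was also called toward the portal side (−0.97 ± 0.26), in 5 of 6 libraries. Ackr1, a chemokine receptor of venules in most organs, was in the chemokine and receptor list but too low for the fit, and after thinning it had a UMI in 6.62% of members against 0.143% of other endothelium and 0.0352% of B cells.

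**Figure D4:**
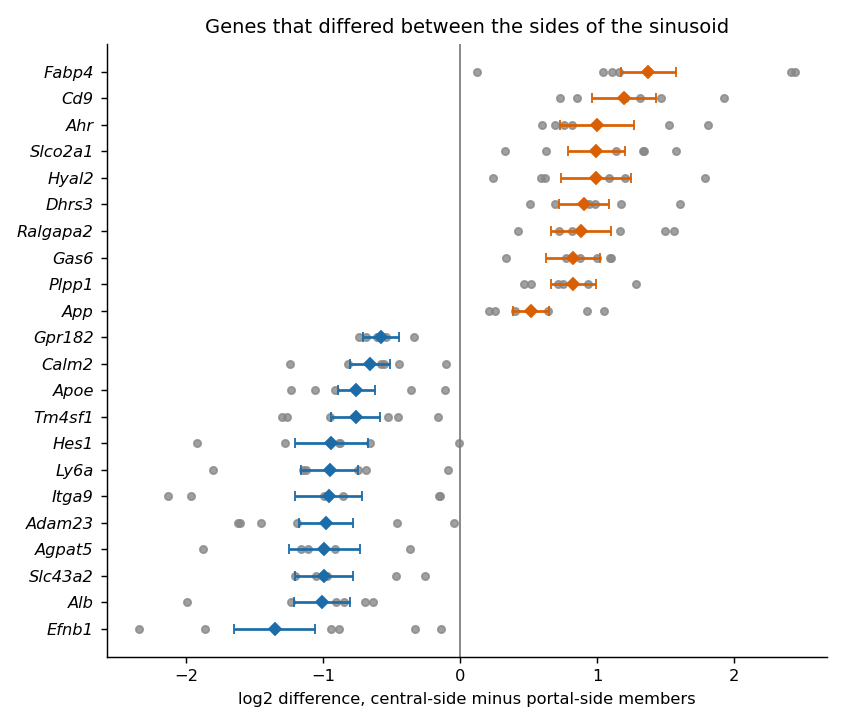
Log2 difference between central-only and portal-only members (x axis) for the named genes (y axis). Diamonds with bars are the edgeR estimate over 6 libraries ± SE, derived from the F statistic of the test. Grey dots are single libraries (log2 ratio of CPM with 10 added). Fabp4 lies highest on the central side (1.37) and Efnb1 highest on the portal side (−1.35).

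The study asked what loss of Nalcn, a sodium leak channel, does to cells across organs. Nalcn itself had 0 UMI in all 1190 members, whose 2460182 UMIs put the limit that a count of 0 allows at 1.22 CPM. It had 54 UMIs in all other passing barcodes (0.183 CPM), so the targeted gene gives no check of genotype in these cells. Prom1, which drives the Cre, had 7 UMIs in 7 members (2.85 CPM), 2 in wt replicate 1, 3 in wt replicate 2 and 2 in het replicate 2, and 2379 UMIs in the rest (8.06 CPM).

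The share of members did not differ between genotypes beyond the spread of libraries. It was 1.02% ± 0.972 (SD, n = 5) in wt, 3.73% ± 3.14 (n = 2) in het and 1.62% ± 1.8 (n = 2) in null. The exact two-sided permutation p was 0.19 for het (difference 2.71 percentage points) and 0.667 for null (0.602), or 0.31 and 0.8 after adjustment over 6 tests. With 2 against 5 libraries no p below 0.0952 could be reached. For both together the mean was 2.67% ± 2.42 (n = 4), exact permutation p = 0.206, adjusted 0.31, where the smallest possible unadjusted value was 0.0159. After adjustment over the 6 tests no share or balance could have passed 0.05, so these tests could not show a difference. The het difference was 0.489 points without het replicate 2 and 4.94 points without het replicate 1. Without null replicate 3, the null difference turned to −0.673 points, with null replicate 2 as the only null library.

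The balance of central over portal UMIs, as log2 of the ratio of summed list UMIs with 0.5 added, was −1.46, 0.101, −0.653 and −1.03 in wt replicates 1 to 4. It was 0.371 and 0.191 in het, −0.363 and −0.866 in null, and −0.737 and −0.451 in the male and female library without a group. Both het values were above every other library. The het mean was 0.281 ± 0.127 (SD, n = 2) against −0.761 ± 0.662 (n = 4) in wt, a difference of 1.04 with an exact two-sided permutation p of 0.133, which is the smallest this design allows, and 0.31 adjusted. The null mean was −0.614 ± 0.356 (n = 2), exact permutation p = 0.8. The null difference of 0.147 turned negative without wt replicate 1, and was −0.105 without null replicate 2 and 0.434 without wt replicate 2.

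Rspo3 gave 242 of the 538 central list UMIs in het replicate 1 and 201 of 620 in het replicate 2. Rspo3 was at 780 and 427 CPM in the het libraries, at 38.7, 0, 167 and 135 CPM in wt replicates 1 to 4, at 0 and 40.2 CPM in null and at 103 and 170 CPM in the libraries without a group. The het values lay above all 8 others, and the log2 difference to wt was 2.93 ± 0.75 with an adjusted p of 0.9999 in edgeR's quasi-likelihood test. Rspo3 did not pass with RLE scaling, DESeq2, at least 500 genes per barcode, no sex covariate, the replicate block or any 1 library left out. Under 3 alternatives of edgeR's test it did pass, with an adjusted p of 0.0457 for members with at least 3 rule genes (2.87), 0.0167 without doublets (2.55) and 3.02e-07 without the filter on low counts (2.97). It also did with libraries of the same age and sex summed (adjusted p 0.00832 in edgeR), but that fit has 1 het unit and so no het replicate. Wnt9b, a ligand of central vein endothelium, was at 83.8 and 44.6 CPM in het, 0, 0, 9.82 and 24.5 CPM in wt, 0 and 6.34 CPM in null, and it did not pass either (3.71 ± 0.88, unadjusted p = 0.001341 in edgeR's test), though it did without the filter on low counts (3.76, adjusted p 0.000378 in edgeR). Wnt2 (0.75), Kit (0.97) and Cdh13 (1.49) had positive and Thbd (−0.38) a negative log2 difference in het, and none passed. Of 3 large-vessel genes fitted, 2 had a positive estimate in het (median 1.18) and none passed. Vwf passed without the filter (1.82, adjusted p 0.0225 in edgeR). The fit without the filter called 75 genes for het, 8 higher and 67 lower. The 8 higher were Rspo3, Wnt9b, Vwf, Igfbp6, AY036118 and the kidney tubule genes Slc12a1, Egf and Klk1. The lower ones included macrophage and neutrophil genes such as Gpnmb (−7.56), Lgals3 (−5.60), Spp1 (−5.44) and S100a8 (−3.48). The fibroblast gene Dcn passed without doublets (4.94, adjusted p 0.0167 in edgeR). With doublets kept, it was at 174 and 170 CPM in het and 3.52, 198, 167 and 147 CPM in wt replicates 1 to 4. The fits without doublets and with at least 3 rule genes left out wt replicate 2, which then held fewer than 20 members. The part of other cells in the Rspo3 and Wnt9b values was not tested. The 2 het libraries share age and sex, and whether they came from 1 mouse was not stated. They were aged 551 days and the wt libraries 571 to 654 days, and no fit had an age term. Age and het genotype therefore cannot be told apart in these values or in the balance.

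Across all genes, no gene passed in any genotype contrast. The fit took 8 libraries with a group and at least 20 members (953 members) and 6137 genes, with labelled sex as covariate. At an adjusted p of 0.05 in edgeR's quasi-likelihood test 0 genes (0%) were called for null against wt, 0 (0%) for het against wt and 0 (0%) for both together against wt, whereas 162, 216 and 194 had an unadjusted p under 0.05. DESeq2 called 3, 0 and 0, the 3 being Spag11b, Gpx5 and Defb20. Without wt replicate 2, edgeR called 2 for null, Spag11b and Defb20.

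The genes with the smallest unadjusted p in null were epididymal secretory genes. Spag11b, an epididymal defensin, was at 203 and 393 CPM in null members, 24.6, 0, 0 and 0 CPM in wt and 38.7 and 27.6 CPM in het (log2 difference to wt 4.78 ± 0.91, adjusted p 0.6348 in edgeR). Cst11 (5.06 ± 0.97) and Defb20 (4.51 ± 0.90) had the same adjusted p. Spag11b and Defb20 passed in edgeR's test under further alternatives, with an adjusted p for Spag11b of 0.0257 with at least 3 rule genes, 0.033 without doublets, 0.00836 without the sex covariate, 1.83e-07 without the filter on low counts and 6.96e-05 with libraries of the same age and sex summed. Cst11 passed under the last 3 of these, and the epididymal Gpx5 under all 5. The fits with at least 3 rule genes and without doublets also left out wt replicate 2, which then held fewer than 20 members. Calca, the calcitonin gene, passed in the lower direction under 4 alternatives of edgeR's test, with an adjusted p of 0.0353 with at least 3 rule genes, 0.0157 without doublets, 0.0269 without the filter and 0.0118 summed. It was at 0, 27, 16.4 and 477 CPM in wt replicates 1 to 4 and at 0 and 50.7 CPM in null, so the groups overlapped and 1 wt library stood above the rest. In all other barcodes of the same libraries Spag11b was at 6230 and 6350 CPM in null, 2940 and 5350 CPM in het and 1120, 132, 85.1 and 6.32 CPM in wt. The null libraries were highest in both sets, and het replicate 2 was near them in the rest but not in the members. The part of this RNA in the members' values was not tested.

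Gene lists in the members showed the same absence of calls. None of the 13 sinusoidal markers, 14 receptors for uptake or 17 lysosomal genes passed in any contrast of this fit. Without the filter on low counts the lysosomal protease Ctss passed for het (−3.26, adjusted p 1.99e-06 in edgeR) and for both together (−2.62, adjusted p 1.4e-06 in edgeR). Ctss had 10, 159, 10 and 13 UMIs in members of wt replicates 1 to 4, 13 and 27 in het and 7 and 10 in null. Most of its wt UMIs thus came from wt replicate 2, the library that stood apart. In null against wt, 12 of 12 immediate early and heat shock genes and 14 of 14 interferon-stimulated genes had a negative estimate (medians −1.01 and −0.95, against −0.07 over all genes), and 5 of 5 hepatocyte genes and 5 of 5 haemoglobin and platelet genes a positive one (0.76 and 0.89), with none past the threshold. In het against wt, 8 of 8 VEGF and TIE family genes (median 0.41) and 11 of 13 sinusoidal markers (0.34) had a positive estimate, against 0.01 over all genes. Larger medians were seen for the central vein side (1.23, 5 of 6 positive), lung capillary genes (−2.59, 2 of 5) and epithelial genes (−1.41, 0 of 3). None of these genes passed. Both contrasts share the wt libraries, of which replicate 2 stood apart. The members of null replicate 2 held 34551 UMIs, the fewest of the 8 libraries.

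**Figure D5:**
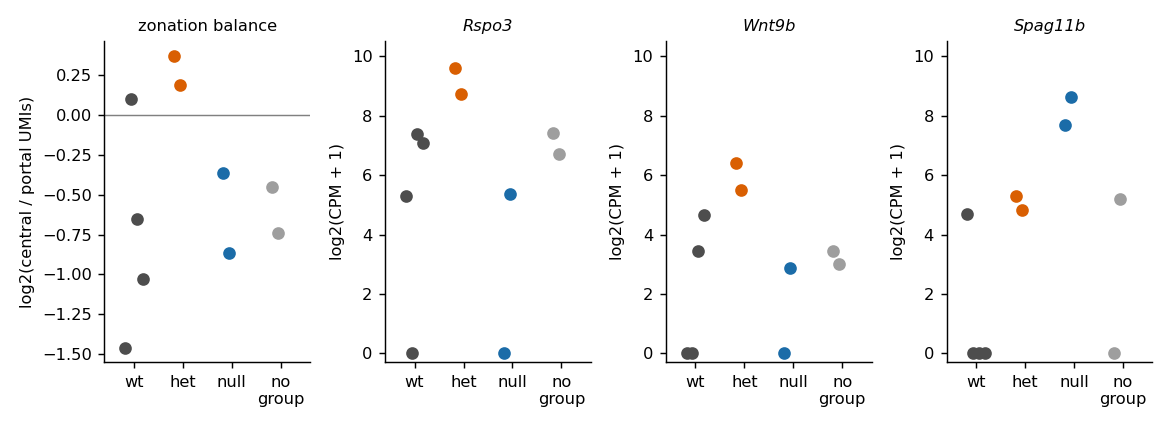
Central over portal balance (log2 ratio of summed UMIs with 0.5 added) and log2(CPM + 1) of Rspo3, Wnt9b and Spag11b in members (y axes) by labelled genotype, with the 2 libraries without a group in light grey; points are libraries. The het libraries lie highest for Rspo3 (780 and 427 CPM) and for the balance (0.371 and 0.191), and the null libraries for Spag11b (203 and 393 CPM).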

How the data were processed

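Per the labels, cells were captured with 10x 3′ v3 chemistry and aligned to mm10. The deposited files hold counts of UMIs per gene and barcode, which the authors made with Cell Ranger (the submitters' processing notes give version 2.1.1 and the matrix headers 3.0.2) and did not normalise further. All deposited barcodes of the 22 libraries were read, and the rule and cell filter were applied to them.

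From these counts, UMIs were summed over members per library, since cells are not replicates. The sums were tested with edgeR 4.0.16 (TMM, filterByExpr, quasi-likelihood test, Benjamini-Hochberg adjustment over all genes tested), under R 4.3.3, in libraries with at least 20 members, or 10 on each side of the lobule. Shares and balances were tested by exact permutation of libraries (scipy 1.17.1). CPM is UMIs per 1000000 UMIs of the summed set. The SE of a log2 difference is its absolute value divided by the square root of the F statistic of the test. The scripts were tested on simulated data. Doublets were marked with Scrublet (scanpy 1.11.5) and kept in the main analysis. The barcodes with the highest scores were marked, at a share set in advance (0.8% per 1000 deposited barcodes, at most 25%). Gene positions came from GENCODE, where 31011 of 31053 matrix entries were found.

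The members, gene lists and tests were chosen with earlier results of these data known. The text names Nalcn and Prom1 and, from each list, examples with large differences in either direction, more than 4 for some lists. The 12 largest differences per direction that passed, with at least 20 CPM in the higher set and 1 direction in every library, are named. Where no genotype contrast passed, the 3 genes with the smallest p are named. Ackr1, Lyve1 in the side comparison, Rspo3 and the genes named for a call under an alternative (such as Gpx5, Calca and Ctss) were chosen after their values were seen. Among the libraries with at least 20 members, no pair of a group agreed within counting noise (chi-square per degree of freedom 1.71 to 8.87), so no library was taken as deposited more than once; this does not show that libraries came from separate mice.

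Replicate numbers recur across genotypes, but the deviations of same-numbered libraries correlated between −0.168 and 0.169, so the main fits use no replicate block. Alternatives were other normalisations, DESeq2 1.42.0, other filters, a member rule of at least 3 genes, removal of doublets, thinning to 1000 UMIs and leaving out each library.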

Additional observations from a re-analysis of the deposited data

Results flagged for a closer look

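The share, the lobule balance and the summed levels of the gene lists in the members were screened in the wt libraries for a library far from the others (Dixon's test at 95%, 35 quantities; about 1 in 20 would be marked by chance). The 4 that were marked are all wt replicate 2. Its members had 1660 CPM of sinusoidal markers outside the rule, against 11300 to 12200 CPM in the other wt libraries, and 1590 CPM of scavenger and uptake receptors, against 6350 to 7170 CPM. They had 13900 CPM of lysosomal genes, against 6260 to 6630 CPM, and 26100 CPM of iron genes, against 4550 to 6460 CPM. In the same library 19.2% of members held at least 3 rule genes, and hepatocyte genes summed to 54 CPM in its members, the lowest of the 10 libraries with at least 20 members. The part of these values in each other was not tested.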

How the results depend on the processing

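Of the values that answer a comparison, 144 were labelled the same under the alternatives, 20 moved and 3 reversed, and the cause was not tested. For a gene comparison, the same means a number of calls of 0 in both fits or within a set ratio of the main number. It does not mean that the same genes were called. For shares and balances, it means the same direction and the same side of the threshold. Genes called for null against wt (0) numbered 3 with DESeq2, 9 without the filter on low counts, 4 with at least 3 rule genes, 4 without doublets, 4 without the sex covariate, 8 with libraries of the same age and sex summed, and 0 to 2 with 1 library left out (2 without wt replicate 2). For het against wt (0) they numbered 75 without the filter, 2 with at least 3 rule genes, 4 without doublets, 22 summed (which leaves 1 het unit, assumed to vary like the other groups), and 0 to 1 with 1 library left out (Ccl4 without wt replicate 1). For both together (0) they numbered 42 without the filter, 10 summed, and 0 to 0 with 1 library left out. Members against other endothelium gave 2299 calls with the rule genes included (1100 higher, 1199 lower), 1138 at no more than 10% mitochondrial UMIs, 1360 after thinning, and 1967 to 2573 with 1 library left out; the split was 1019 higher and 1321 lower with RLE scaling and 1200 and 1962 without the filter. Central against portal members gave 35 calls with the list genes included, 12 with DESeq2, 57 without the filter, 7 after thinning, and 23 to 42 with 1 library left out (23 without het replicate 2). Leaving out 1 library moved the difference in share to between −0.673 and 1.88 points for null, 0.489 and 4.94 for het, and 0.564 and 2.43 for both, and the difference in balance to between −0.105 and 0.434, 0.809 and 1.33, and 0.361 and 0.881. All 24 genes named in members against other endothelium kept their direction and their call in 441 repeats, and 65 of 266 repeats for genes named between lobule sides lost the call. Only repeats in which the gene could be fitted are counted. These genes were named because they passed with 1 direction in every library of the same data, so a kept call is no independent check. With the replicate block 0, 0 and 0 genes were called for null, het and both, with 206, 227 and 272 at an unadjusted p under 0.05 in edgeR; the numbers do not pair the libraries. At no more than 10% mitochondrial UMIs the genotype, side and balance values could not be computed, since too few members remained (279). With at least 3 rule genes or without doublets, wt replicate 2 held fewer than 20 members and left the genotype fits and the balance. Depth limits wt replicate 5 (2 members) and null replicate 2 (34551 UMIs).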

Other observations

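Some values belong to no comparison above. Cell cycle genes were rare in the members (8 genes, 42.6 to 261 CPM in sum over the 10 libraries, highest in wt replicate 2, against 47 to 97.2 CPM in other endothelium). The lymphatic genes Prox1, Pdpn, Ccl21a and Reln summed to 0 to 99.7 CPM in members and 2.25 to 31.2 CPM in other endothelium. Among genes that did not pass in the genotype contrasts, the remaining ones with the smallest unadjusted p in edgeR were the noncoding AY036118 (log2 difference 2.08) and Fosb (−2.17) for het against wt, and the chemokine Ccl6 (−2.07) for het and null together. Under alternatives of the same test AY036118 passed without doublets (adjusted p 0.0167 in edgeR), without the filter on low counts (0.00198) and with libraries of the same age and sex summed (0.0458, with 1 het unit), Fosb without the filter (0.0186), and Ccl6 without the filter (0.00794) and summed (0.0322). The 235 members of the 2 libraries without a genotype group had 13900 CPM (male) and 8810 CPM (female) of sinusoidal markers outside the rule, beside 7900 to 12200 CPM in the grouped libraries other than wt replicate 2.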
